A study of Mus musculus with 6 samples.

Results

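The kidney turns arachidonic acid into vasoactive and natriuretic lipids through cytochrome P450 enzymes. The genes described here encode epoxygenases, omega-hydroxylases and the epoxide hydrolases that remove epoxygenase products. They were 9 genes taken by symbol from the array's annotation: Cyp2c23, Cyp2j5, Cyp2j6, Cyp2j9, Cyp4a10, Cyp4a12a, Cyp4a14, Ephx1 and Ephx2. Of these, 8 had a named probe, with 10 probes among 34885 probes with 1 symbol. Cyp4a10 was not analysed here. The set was proposed with results in view, because Cyp2c23 had been noticed as lower after captopril.

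Transcripts were measured in the kidney cortex of male C57BL6 mice. The captopril group was 3 mice that drank captopril, which blocks angiotensin-converting enzyme, for 7 days. Their dose was 10 mg/kg/day and they were 11 weeks old when it began. The control group was 3 mice, and all 6 mice are listed at 12 weeks. What the control mice drank is not stated in the labels, and no genetic change is given for either group.

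Epoxygenases add an epoxide to arachidonic acid and make epoxyeicosatrienoic acids (EETs), which relax renal vessels and restrain sodium uptake through the epithelial sodium channel. Omega-hydroxylases of the Cyp4a family, in the male mouse kidney mainly the Cyp4a12a product, make 20-hydroxyeicosatetraenoic acid (20-HETE). This lipid constricts small arteries and also inhibits tubular sodium transport. Soluble epoxide hydrolase, encoded by Ephx2, turns EETs into less active diols. The proximal tubule, the main cell mass of the cortex, is rich in these P450 enzymes.

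Each array held 45281 probes, of which 36.2% to 38.2% were detected above negative controls, and the number of arrays limits the precision. Any 2 arrays correlated at 0.984 to 0.987 across tested probes, and 0 pairs held identical values. Proximal tubule markers were present in the tissue, with 11 of 13 list genes that had a probe detected on all 6 arrays, among them Slc34a1 and Lrp2. All 6 collecting duct markers and 5 of 6 loop and distal tubule markers with a probe were also detected on all 6 arrays. Of 6 adipocyte markers with a probe, 0 were detected on every array, and Plin1 and Fabp4 were detected on none.

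The members split into a detected and an undetected part. Cyp2c23, Cyp4a12a, Cyp4a14, Ephx1, Ephx2 and the brighter of both Cyp2j9 probes were detected on all 6 arrays. The other Cyp2j9 probe was detected on 2 arrays of each group, and the 3 probes of Cyp2j5 and Cyp2j6 on 0 arrays. Of the 10 probes 7 therefore entered the test, for 6 genes. In limma 0 of the 7 passed the adjusted threshold, against 0.0182% of all 16500 probes tested. At an unadjusted p under 0.05 stood 1 of the 7, Cyp2c23, against 4.28% of all probes, and 1 of the 7, again Cyp2c23, passed when eBayes was run with its trend and robust options, against 0.0303%. Because that gene was chosen from this contrast, nothing is read from either count. The median difference of the 7 probes was 0.03 on the log2 scale, against -0.002 over all probes, and 5 of the 7 had higher means in captopril cortex, against 49.6% of all probes.

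**Figure D1:**
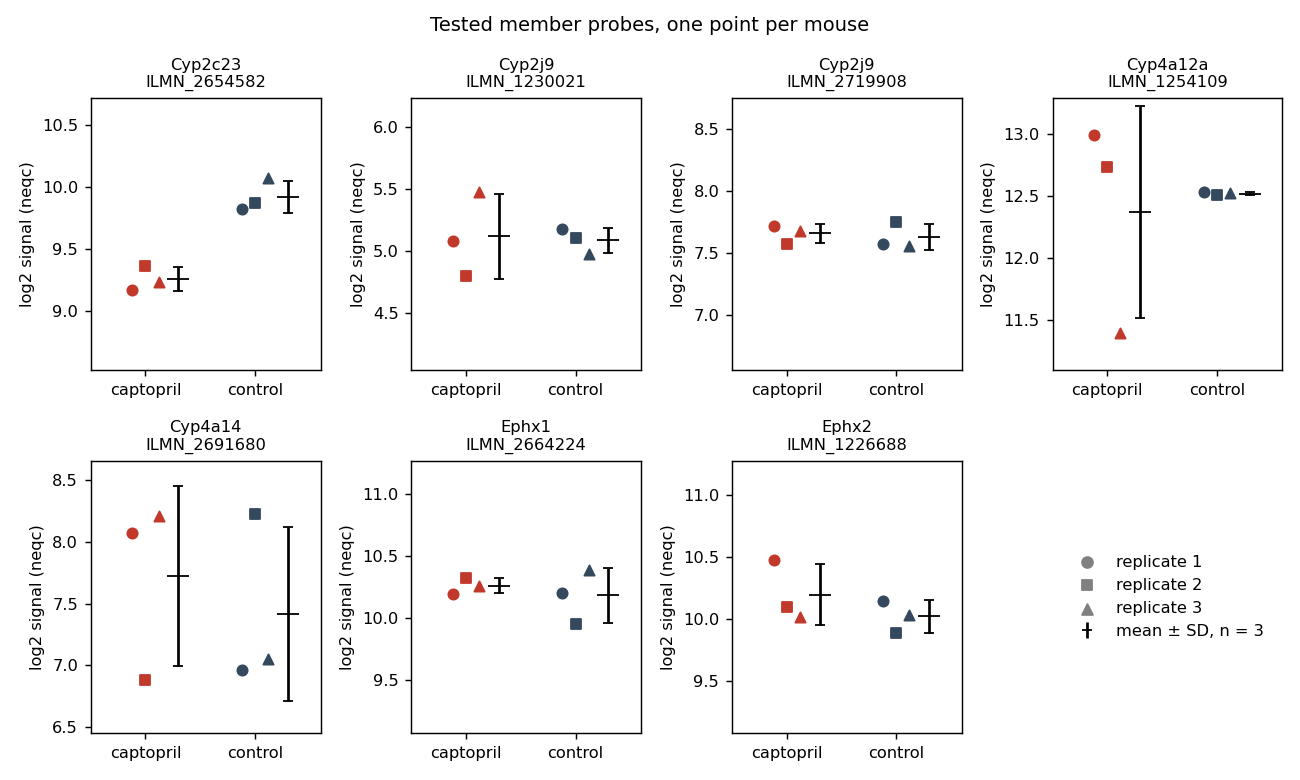
Normalized log2 signal (neqc) of each tested member probe on the vertical axis, with captopril mice left and control mice right, 1 point per mouse, and bars for the mean ± SD (n = 3). Every panel spans the same number of log2 units. Cyp2c23 separates the groups, Cyp4a12a is spread among captopril mice only, and Cyp4a14 is spread in both groups.

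Among the epoxygenases, Cyp2c23, which in older mouse annotation is called Cyp2c44, was lower in captopril cortex. Its probe ILMN_2654582 gave 9.17, 9.36 and 9.23 log2 units in captopril mice 1 to 3, against 9.82, 9.87 and 10.07 in control mice 1 to 3. All captopril mice lay below all control mice. Captopril cortex averaged 9.25 ± 0.10 and control cortex 9.92 ± 0.13 (SD, n = 3 each). On the log2 scale captopril cortex thus differed by -0.67 (SE 0.13), or stood at 0.63 times the control level. The scanner signals before any correction were 853, 643 and 735 in captopril mice and 1057, 899 and 1131 in control mice, so they too did not overlap. It differed by -0.58 when no background was corrected and by -0.50 in the authors' processed values. With 1 array left out it stayed between -0.72 and -0.59. These values chose the gene and are given as a description, and non-overlap of the groups was found in 8.69% of all probes tested. In bulk cortex, fewer cells of a type and less RNA per cell cannot be told apart.

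In the marker lists limma called 0 genes. An unadjusted p under 0.05 was reached by 1 of 5 tested loop and distal tubule markers, higher, and 1 of 3 tested podocyte markers, lower. It was reached by 0 genes in each other marker list, against 3.69% of all named genes. The proximal tubule list, with 12 tested genes, had centred levels of 0.01 to 0.06 in captopril mice and -0.04 to -0.01 in control mice, with 7 positive and 5 negative differences. The podocyte list, with 3 tested genes, was at -0.27 to -0.02 in captopril mice and 0.02 to 0.24 in control mice. Within it, Nphs1, the nephrin gene, and Podxl were lower in every captopril mouse than in every control mouse. The groups overlapped in Synpo, with a difference of -0.08 (SE 0.13). Non-overlap was found in 8.73% of all named genes. Loop and distal tubule markers lay at 0.01 to 0.09 in captopril mice and -0.12 to 0.03 in control mice. Collecting duct markers overlapped, at -0.08 to 0.09 in captopril mice and -0.13 to 0.12 in control mice. The adipocyte list had 3 tested genes, with Adipoq detected on 4 arrays and Plin1 and Fabp4 on 0. Its centred level was 0.70, -0.57 and 0.59 in captopril mice 1 to 3, against -0.57, -0.30 and 0.14 in control mice 1 to 3, so the groups overlapped. The part of these levels in the Cyp2c23 result was not tested.

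The Cyp2j genes form 1 cluster in the RefSeq table (GRCm38.p6), where Cyp2j6, Cyp2j9 and Cyp2j5 are neighbours. Cyp2j9, whose product is known in mice from brain, gave 7.72, 7.57 and 7.68 log2 units for ILMN_2719908 in captopril mice, against 7.57, 7.75 and 7.56 in control mice. These groups overlapped, with a difference of 0.03 (SE 0.13) and adjusted p = 0.995 in limma. The 95% interval ran from 0.83 to 1.25 times the control level. The dimmer probe ILMN_1230021 gave 5.08, 4.80 and 5.48 log2 units in captopril mice and 5.18, 5.11 and 4.98 in control mice. With detection on 2 arrays of each group it lay too near the limit for a fold.

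Cyp2j5 encodes an epoxygenase described as abundant in mouse kidney, yet its probe ILMN_2608511 was not well above background on any array. Its scanner signals were 152, 125 and 142 in captopril mice, against 141, 115 and 137 in control mice. Detection p-values were 0.107, 0.0716 and 0.12 in captopril mice and 0.222, 0.125 and 0.0662 in control mice. The lowest detected signal of an array was 128 to 158 in captopril mice and 120 to 151 in control mice. Whether this probe reports the transcript well was not tested, and no fold is given.

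Cyp2j6, a relative best known from the intestine, had 2 probes and neither was detected. ILMN_2559852 came closest to detection on captopril array 1, with a detection p of 0.0556. Its other detection p-values were 0.25 and 0.42 in captopril mice and 0.506 to 0.91 in control mice. ILMN_2636302 gave detection p-values of 0.194 to 0.667 in captopril mice and 0.603 to 0.86 in control mice. For both probes only a bound, the detection limit, can be stated in either group.

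**Figure D2:**
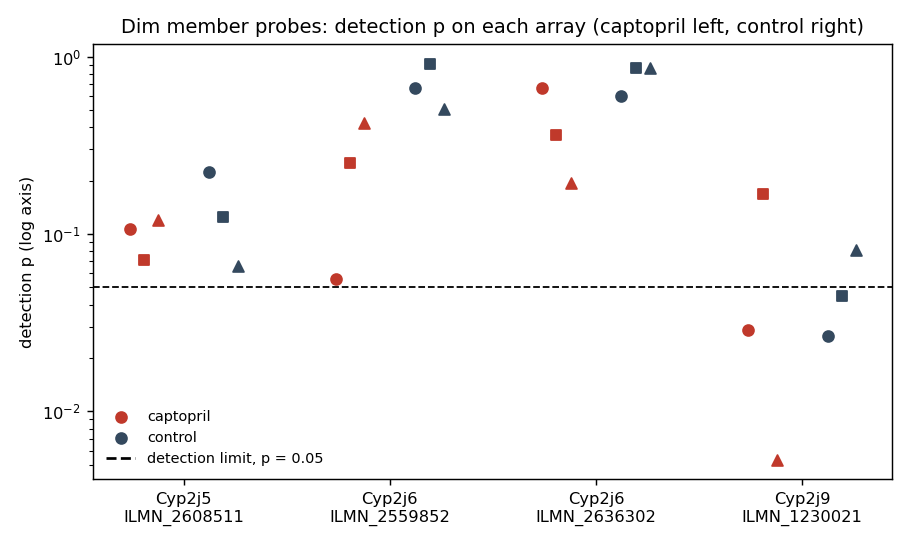
Detection p on a log axis for the 4 dim member probes, with captopril arrays left and control arrays right and 1 point per mouse (circle, square and triangle for replicates 1, 2 and 3). The dashed line is the limit of 0.05. The 3 probes of Cyp2j5 and Cyp2j6 stay above the line on all 6 arrays, and the dim Cyp2j9 probe lies under it on 2 arrays per group.

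Of the omega-hydroxylases, Cyp4a12a encodes the main 20-HETE synthase of the male mouse kidney and is induced by androgens. Its probe ILMN_1254109 gave 12.99, 12.73 and 11.39 log2 units in captopril mice 1 to 3, against 12.53, 12.50 and 12.52 in control mice 1 to 3. Captopril mice 1 and 2 lay above all control mice and captopril mouse 3 below them. Scanner signals were 10045, 5916 and 2913 in captopril mice and 6301, 5061 and 5796 in control mice. The mean difference was -0.15 (SE 0.36), with adjusted p = 0.995 in limma and a 95% interval of 0.51 to 1.62 times the control level. Without captopril array 3 the difference turned to 0.35 and the groups no longer overlapped, with adjusted p = 0.967 in limma. Fewer arrays separate more easily, and the share of all probes without overlap was not taken in that setting.

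The spread of Cyp4a12a was unequal between groups. Its SD was 0.86 in captopril mice, where 0.152% of all tested probes had an SD as large, and 0.01 in control mice, where 0.388% had an SD as small. The range covered 3.02-fold in captopril mice and 1.02-fold in control mice. The fit assumes 1 spread for both groups, so 1 SE covers both. No test of the spread was made, since the pattern was noticed in these values.

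The androgen-regulated list was set beside the Cyp4a12a values. Among 7 tested genes limma called 0, and 0 reached an unadjusted p under 0.05, against 3.69% of named genes. The list's centred level was 0.15, -0.01 and -0.0004 in captopril mice 1 to 3 and -0.07 to -0.02 in control mice. Single genes varied, and in captopril mouse 3 Akr1c21 was at its lowest of all 6 mice and Kap and Cyp7b1 at their highest. The polyamine enzyme gene Odc1 differed by 0.26 (SE 0.12), Acsm3 by 0.26 (SE 0.14) and the glucuronidase gene Gusb by 0.20 (SE 0.18). In Odc1 and Acsm3, 2 of the 7, all captopril mice lay above all control mice, against non-overlap in 8.73% of named genes. Cyp4a12b, a neighbour that shares the former name Cyp4a12, gave 9.13, 8.72 and 8.57 log2 units in captopril mice and 8.41, 9.21 and 8.76 in control mice. Captopril mouse 3 was the lowest captopril mouse for Cyp4a12b too, but lay above control mouse 1. Marker lists went both ways in captopril mouse 3. It was the lowest of all 6 mice for the macrophage, endothelium and podocyte lists. For the loop and distal tubule list (0.09) and the liver list (0.08) it was the highest. Its proximal tubule level, 0.006, was the lowest among captopril mice but above all control mice. The macrophage list, with 5 tested genes, was at 0.21, 0.50 and -0.38 in captopril mice 1 to 3 and -0.18 to -0.05 in control mice. The endothelium list, with 6 tested genes, was at 0.04, 0.23 and -0.17 in captopril mice 1 to 3 and -0.10 to 0.01 in control mice. The part of the androgen-regulated list and of these marker lists in the Cyp4a12a values was not tested. Whether the Cyp4a12a and Cyp4a12b probes each report 1 gene was not tested, and both values are uncertain in that respect.

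Cyp4a14, an omega-hydroxylase gene induced through the fatty acid receptor PPAR-alpha, varied within both groups. ILMN_2691680 gave 8.07, 6.88 and 8.21 log2 units in captopril mice 1 to 3, against 6.96, 8.23 and 7.06 in control mice 1 to 3. The high mice were captopril 1 and 3 and control 2, and the groups overlapped. The range was 2.51-fold in captopril mice and 2.40-fold in control mice. Its SD was reached by 0.352% of all tested probes in captopril mice and by 0.952% in control mice. The mean difference was 0.31 (SE 0.42), adjusted p = 0.995 in limma, and the 95% interval ran from 0.63 to 2.43 times the control level. Leaving out captopril mouse 3 gave 0.06, captopril mouse 2 gave 0.73 and control mouse 2 gave 0.71, so single mice decide its size. Captopril mice 1 and 3 also had the highest adipocyte levels, given above, while control mouse 2 did not, and their part in the Cyp4a14 values was not tested.

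**Figure D3:**
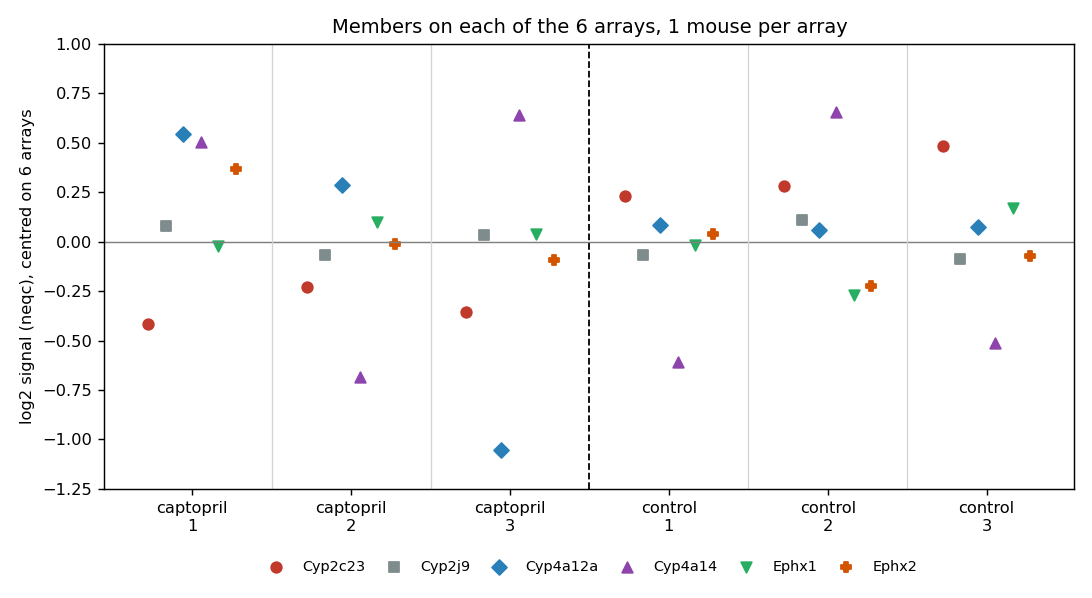
Normalized log2 signal (neqc) of 6 members on each array, centred on the mean over the 6 arrays, with captopril arrays left of the dashed line and control arrays right of it. Cyp2c23 is below 0 on every captopril array and above 0 on every control array. Cyp4a12a is at -1.05 on captopril array 3, and Cyp4a14 is above 0.5 on captopril arrays 1 and 3 and on control array 2.

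The epoxide hydrolases had small differences. Ephx2, which encodes soluble epoxide hydrolase, gave 10.47, 10.09 and 10.02 log2 units in captopril mice, against 10.14, 9.88 and 10.03 in control mice. The groups overlapped and captopril mouse 1 was the highest. The difference was 0.17 (SE 0.16), adjusted p = 0.995 in limma, with a 95% interval of 0.87 to 1.46 times the control level. It was 0.03 without captopril array 1. Ephx1, which encodes the microsomal enzyme, gave 10.20, 10.32 and 10.26 log2 units in captopril mice and 10.21, 9.95 and 10.39 in control mice. Captopril values lay within the control range, with a difference of 0.08 (SE 0.15) and adjusted p = 0.995 in limma. Its 95% interval ran from 0.83 to 1.33 times the control level.

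**Figure D4:**
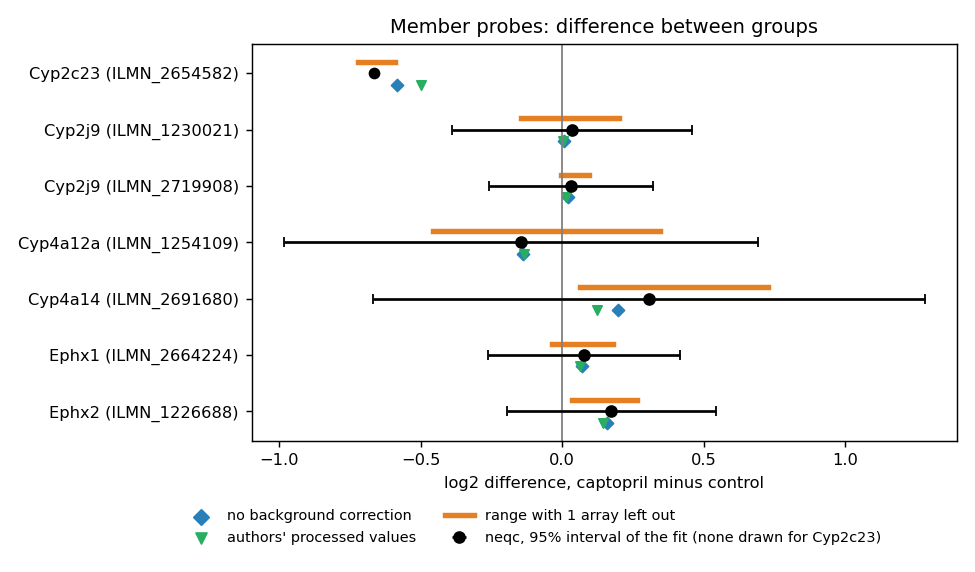
Log2 difference, captopril minus control, for the 7 tested member probes. Black points with bars are the neqc fit with its 95% interval, blue diamonds the fit without background correction, green triangles the authors' processed values, and orange bars the range with 1 array left out. Cyp2c23, whose difference chose it, is drawn without an interval, and its values lie between -0.72 and -0.50. The interval of each other probe spans 0, and ILMN_1230021 was detected on 2 arrays of each group.

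The rest of the arachidonate pathway was followed in 6 lists of 89 genes. A named probe existed for 77 of them, and 41 were tested. In limma 0 of the 41 passed, against 0% of the 9718 named genes tested. At an unadjusted p under 0.05 stood 1 of the 41, against 3.69% of named genes, and in 1 of the 41 the groups did not overlap, against 8.73%. The median difference of the 41 genes was -0.02, against -0.003 over all named genes. A further 3 lists held PPAR-alpha targets, androgen-regulated genes and clock genes, with 34 of 50 genes tested. Of these 0 passed and 0 had an unadjusted p under 0.05. In 4 of the 34 the groups did not overlap, against the same 8.73% of named genes.

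Of 18 other Cyp2c, Cyp2j, Cyp2s and Cyp2u genes with a named probe, 3 were tested and 8 were detected on no array, among them Cyp2c55 and Cyp2j8. Cyp2s1 differed by -0.13 (SE 0.16), Cyp2j13 by 0.14 (SE 0.18) and Cyp2j11 by -0.01 (SE 0.12). In all 3 the groups overlapped. Of 13 other Cyp4 genes with a probe, 7 were tested, with a median of -0.01. Cyp4v3 differed by -0.25 (SE 0.23), Cyp4f16 by 0.12 (SE 0.17, its other probe -0.17) and Cyp4f13 by -0.09 (SE 0.13). Cyp4a31, which follows Cyp4a14 and Cyp4a10 in the cluster, gave 10.33, 10.10 and 10.43 log2 units in captopril mice and 10.23, 10.42 and 10.22 in control mice. The mice above 10.3 were captopril 1 and 3 and control 2, the same mice as for Cyp4a14. Cyp4a31 was named after its values were seen.

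Electron transfer to P450 enzymes was followed only in part. The 3 genes tested were of cytochrome b5 and its reductase, and Por, the P450 reductase gene, had no named probe. Cyb5b differed by -0.05 (SE 0.12), Cyb5r3 by 0.05 (SE 0.16) and Cyb5a by -0.03 (SE 0.15), all overlapping. Ephx4, a further epoxide hydrolase gene, was detected on 0 arrays. Among genes that release arachidonate from phospholipid or return it there, 14 were tested, with a median of -0.06. Of these, 3 had positive and 11 negative differences, against 50.9% negative among all named genes. The signs depend on the probe used. Lpcat3, Daglb and Mgll, counted as negative at their brightest probe, reached 0.37, 0.23 and 0.16 at another probe. Pla2g4e and Pla2g4f, also counted as negative, were detected on 3 and 4 arrays, near the limit. The phospholipase gene Pla2g4b differed by 0.17 (SE 0.14) and its other probe by -0.27, the ligase gene Acsl4 by -0.19 (SE 0.15). Dagla was detected on 2 captopril arrays and 1 control array, too near the limit for a fold. Pla2g4a, the cytosolic phospholipase that supplies arachidonate in many cells, was detected on 0 arrays.

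In the competing cyclooxygenase and lipoxygenase arms 7 genes were tested, with a median of 0.04. Hpgd, whose product breaks down prostaglandins, was the 1 gene with an unadjusted p under 0.05. It passed detection on 3 captopril arrays and 1 control array, too near the limit for a fold, and control mouse 1 lay above captopril mouse 3. The prostaglandin E synthase gene Ptges2 differed by -0.15 (SE 0.12) without overlap, and the leukotriene synthase gene Ltc4s by 0.14 (SE 0.20). Ptgs2, the inducible cyclooxygenase gene, was detected on 0 arrays and Ptgs1 had no named probe, so no cyclooxygenase gene was among those tested. The lipoxygenase gene Alox5 was also detected on 0 arrays.

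Effectors of EETs and 20-HETE gave 7 tested genes and a median of 0.03. Scnn1a, a subunit gene of the epithelial sodium channel, differed by 0.28 (SE 0.17) and Scnn1b by -0.08 (SE 0.15). Slc12a1, the sodium transporter of the thick ascending limb, differed by -0.22 (SE 0.15) at its brightest probe, and its 5 probes ranged from -0.22 to 0.26. The 20-HETE receptor gene Gpr75 was detected on 0 arrays. In all of these the groups overlapped.

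Targets of PPAR-alpha, which drives Cyp4a10 and Cyp4a14 during fasting, gave 16 tested genes, 7 with positive and 9 with negative differences and a median of -0.02. Ehhadh, a peroxisomal fatty acid oxidation gene, differed by 0.24 (SE 0.15) and Angptl4 by 0.19 (SE 0.15). Ppara itself was detected on 2 arrays of each group, too near the limit for a fold. The list level was 0.08, -0.09 and 0.01 in captopril mice 1 to 3 and 0.07, 0.002 and -0.07 in control mice 1 to 3. Control mouse 2, among the high mice for Cyp4a14, stood in the middle of the list. Single targets varied. Slc25a20, named after its values were seen, was highest in captopril mice 1 and 3 and control mouse 2, while Ehhadh and Angptl4 were not. The part of these targets in the Cyp4a14 values was not tested. Of 11 tested clock genes 0 passed, and in 2 the groups did not overlap, against 8.73% of named genes. These were Nr1d1 and Dbp, lower in all captopril mice, by 0.26 (SE 0.13) and 0.16 (SE 0.12) on the log2 scale. Per2 differed by 0.28 (SE 0.15). Their part in the Cyp2c23 result was not tested.

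**Figure D5:**
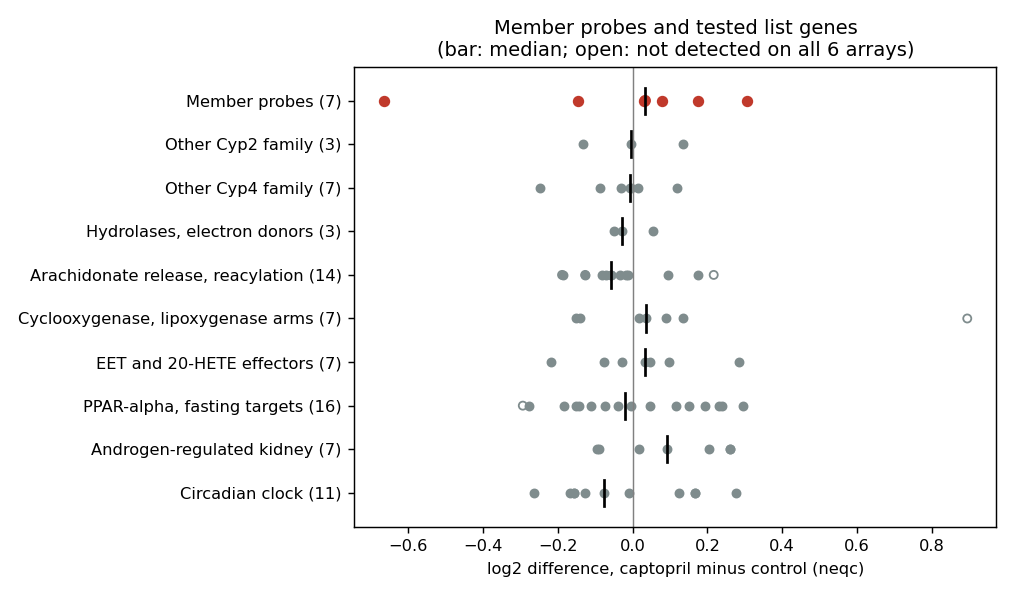
Log2 difference, captopril minus control, of the 7 tested member probes (red) and of the tested genes of the 6 arachidonate lists and the 3 other lists (grey, 1 probe per gene, number in brackets), with a bar at each median. Open points were not detected on all 6 arrays and lie too near the limit for their distance to be read. The medians lie between -0.08 and 0.09, and Cyp2c23 is at -0.67.

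The array profile of Cyp2c23 was set against those of 11753 other named probes detected on all 6 arrays. Likeness was the root mean square difference in log2 units between profiles centred on their own mean, over 6 arrays. The closest genes were Faap24 at 0.0782, Washc1 at 0.0990, Ppox at 0.105, Echdc3 at 0.111 and Colgalt2 at 0.112, against a median of 0.377 over all. All 5 were lower in captopril cortex, by -0.64, -0.58, -0.53, -0.50 and -0.53, which the rule makes likely. The other probe of Faap24 gave 0.59 and that of Colgalt2 0.17, so those genes' probes disagree in direction, and the other probe of Ppox gave -0.13.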

How the data were processed

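RNA of 6 kidney cortices, 1 mouse each, was hybridised to Illumina MouseWG-6 v2 bead arrays. The deposited signals are intensities on a linear scale, per the file headers, with a detection p-value beside each. They were not normalized between arrays, since array medians ran from 111 to 147. The authors' processed values lie on a log2-like scale. They ranked probes exactly as the signals did and are compressed at the dim end. Lumi is the only tool named per the submitters' processing notes.

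Signals were corrected, quantile-normalized and put on a log2 scale with neqc of limma 3.58.1 in R 4.3.3 (offset 16). A probe was tested where its detection p was under 0.05 on 3 or more of all 6 arrays, which left 16500 of 45281. Captopril was set against control with lmFit and eBayes, two-sided, with Benjamini-Hochberg adjustment over those probes and a threshold of 0.05. The fit was tested on simulated data. Of the probes, 34885 had 1 symbol in GEO's platform annotation, and 10396 are unnamed here.

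The members and the gene lists were chosen with earlier results of these data known, and Cyp2c23 because it was lower here, so its difference carries no test. Named from each list are the 3 genes with the smallest unadjusted p, since none passed, and exceptions are stated. Of several probes of a listed gene, the brightest on average over all arrays was used. Alternatives covered background correction, scaling, the filter, the authors' values, eBayes options, array weights, a replicate block and each array left out. The gene table used for names is of the GRCm38.p6 assembly. No build is given in the sources used here, so coordinates are not printed.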

Additional observations from a re-analysis of the deposited data

How the results depend on the processing

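With 3 mice per group the intervals above bound what can be seen, and probes near background have compressed differences. The only alternative chosen after seeing the data left out captopril replicates 1 and 3, which had the highest adipocyte level (0.70 and 0.59, against -0.57 in captopril replicate 2 and -0.57 to 0.14 in controls); the lone captopril array is then assumed to vary like the controls.

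The count of member probes past the threshold was 0 in every other alternative and 1, Cyp2c23, with the trend and robust options of limma. Of all probes, 3 were called lower, against 5 with those options, 0 with the replicate block, 0 without captopril replicates 1 and 3 and 2 with any 1 array left out. The members' median of 0.03 became 0.12 with median scaling and -0.050 without captopril replicates 1 and 3, and ran from -0.004 to 0.08 with 1 array left out. With median scaling the median over all tested probes moved too, from -0.002 to 0.08. Without captopril replicates 1 and 3 it was -0.001. The count of members without overlap, 1, was 2 with no filter (the undetected Cyp2j6) and 1 to 2 with 1 array left out. It was 4 without captopril replicates 1 and 3, where 1 array faces 3. Groups of fewer arrays separate more easily. The share over all probes was not taken in these settings, so nothing is read from these counts.

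Cyp2c23 stayed lower in all alternatives, at -0.56 without captopril replicates 1 and 3. With 1 array left out, differences ran from -0.037 to 0.18 for Ephx1, from -0.0044 to 0.093 for ILMN_2719908 and from -0.15 to 0.20 for ILMN_1230021 of Cyp2j9, and from -0.46 to 0.35 for Cyp4a12a. Without captopril replicates 1 and 3 the sign also turned for Cyp4a14 (-0.53), Cyp4a12a (0.22), ILMN_1230021 (-0.27) and ILMN_2719908 (-0.050). Medians of the pathway lists moved by less than their spread between control arrays with no background correction, with the authors' values and with the mean of a gene's probes, the 3 alternatives run for lists. Replicate numbers are shared between groups, but same-numbered arrays deviated together by only 0.004, 0.01 and 0.04 (correlation over probes), so the numbers were not taken as pairs, and the replicate block gave 0 called member probes.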

Other observations

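Genes whose array profile was nearest to those of the scattered omega-hydroxylases were listed after the values were seen, and they carry no test. For Cyp4a14 they were Ptpa, at a root mean square difference of 0.251 log2 units, Aadat, which encodes an aminoadipate aminotransferase, at 0.298, and Cldnd1 at 0.305, against a median of 0.625 over named probes detected on all 6 arrays. Aadat gave 6.85, 5.79 and 7.20 log2 units in captopril mice 1 to 3 and 6.12, 6.44 and 5.99 in control mice 1 to 3. For Cyp4a12a the nearest were Fstl1 at 0.186, Zfp317 at 0.190 and Slc35b3 at 0.193, against a median of 0.531. These are dim probes. On captopril array 3 they gave 5.43, 5.14 and 5.17 log2 units, near the detection limit, against 11.39 for Cyp4a12a. Slc35b3 gave 6.40, 6.45 and 5.17 log2 units in captopril mice 1 to 3 and 5.92, 5.75 and 6.17 in control mice 1 to 3.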
